A study of Mus musculus with 8 samples.

Results

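Nuclear receptors are transcription factors whose activity is set by small lipophilic molecules such as fatty acids, bile acids, oxysterols, retinoids, thyroid hormone and steroids. In liver they set the rates of fat oxidation, lipid synthesis, bile acid production, drug clearance and the daily rhythm, and many bind DNA together with a retinoid X receptor. Coactivators and corepressors carry their signal to chromatin, so the amount of receptor transcript is only 1 of the levels at which they are controlled. The genes of 29 nuclear receptors other than Pparg were taken by name. All 29 were among the 13774 genes of the table for Ube3a TG, and 28 were among the 11773 genes of the table for Ube3a het. Nr4a1 was not analysed here in het.

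Liver RNA of C57BL/6 mice was sequenced in 8 libraries, with 2 in each of 4 groups, and every group had been fed a high-fat diet of 42% for 8 weeks. The TG group was homozygous for a transgene of Ube3a, the gene of a ubiquitin ligase, and was set against its own WT pair. The het group carried 1 knockout and 1 WT allele of Ube3a and was set against a different WT pair. No group on another diet was used here, so no value below measures the diet. The sources used here give neither the promoter of the transgene nor the age and sex of the mice. Whether the 2 libraries in a group represent different mice is also not stated, so p-values measure only the spread between these libraries, which may be technical.

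The reads recovered per library ran from 44193275 to 47928229 in the TG table and from 13171145 to 17748088 in the het table. Values are normalised read counts, and the tables were normalised separately, so levels are compared within a table. Ube3a stood at 5991 and 5938 in the TG libraries against 1187 and 1359 in WT (log2 fold change 2.23, limma's adjusted p = 0.0586). In het it stood at 301 and 280 against 369 and 409 (log2 fold change -0.42, limma's adjusted p = 0.129). Both pairs lay on the side their labels give, although exons of Ube3a overlap genes of the opposite strand, and transcripts of the knockout allele outside its deleted part would be counted too. Of 10 hepatocyte markers 9 were measured, each above 0 in every library. The tables list genes only from a lowest mean upward, so this is no check of cell type.

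Per kilobase of exon, Ppara, Hnf4a and Rxra were the most abundant of the receptor transcripts in WT liver. Ppara led the TG table's WT pair with a level of 5909 normalised reads, followed by Hnf4a with 5100, Rxra with 4188, Nr1i3 with 2836, Nr1h4 with 2663 and Nr1h3 with 2496. The WT libraries of neighbours in this order did not overlap down to Nr1h3. At the low end stood Ppard with a level of 54.3, Nr4a1 with 27.5 and Nr2c2 with 26.8 normalised reads per kilobase, and the last pair overlapped. The het table's WT pair began with the same 3 genes, Ppara at 1872, Hnf4a at 1482 and Rxra at 1207 normalised reads per kilobase, and ended with Nr2c2 at 6.55. In the middle of the order many neighbours overlapped, as with Thrb, Esr1, Rora, Rxrg and Rara, whose levels ran from 222 to 201 normalised reads per kilobase in the TG table. Exon length was the union over all annotated transcripts, so a gene with long rare exons has its level understated.

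**Figure D1:**
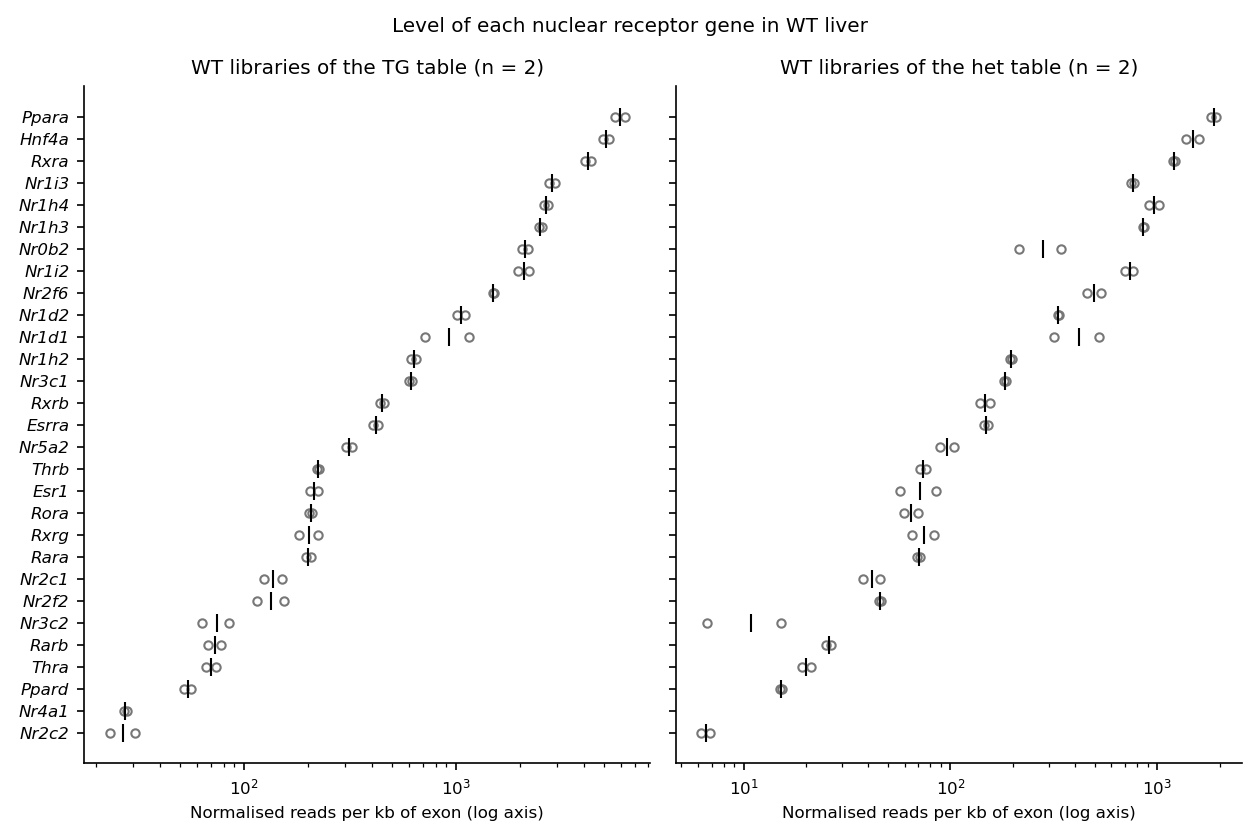
Level of each receptor gene in the WT libraries, as normalised reads per kilobase of exon on a log axis, with the TG table on the left and the het table on the right. Open circles are single libraries (n = 2 per panel) and bars are their means; Ppara, Hnf4a and Rxra lead both panels, and Nr2c2 is last in both.

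No receptor gene passed the test in either genotype. With limma, which fits all genes of a table together and adjusts p-values by Benjamini-Hochberg, 0 of 29 members had an adjusted p under 0.05 in TG, where 0% of all genes did. In het the count was 0 of 28, against 1.44% of all genes, and for the difference between the TG and het effects 0 of 28, against 0.434%. The smallest adjusted p with limma was 0.454 in TG (Rora), 0.111 in het (Rara) and 0.112 for the difference (Rara). Count tests on the recovered reads gave 0 members as well. There edgeR called 0% of all genes in TG, 1.55% in het and 0.374% for the difference, and DESeq2 called 1.42%, 2.45% and 3.16%. The smallest adjusted p with DESeq2 was 0.0704 in TG (Rora), 0.0524 in het (Nr1d1) and 0.0663 for the difference (Nr1d1). A p above the threshold with 2 libraries a group does not show that a receptor's level was the same.

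The unadjusted p-values of limma and the order of the libraries show where the receptors lay. In TG, 4 of 29 members had an unadjusted p under 0.05 and were higher, Rora, Nr5a2, Thrb and Nr1d2, against 5.15% of all genes, and 0 were lower, against 3.96%. Both TG libraries lay above both WT libraries for 10 of 29 members and below for 3, where 21.8% and 21.6% of all genes did so. In het, 4 of 28 members were higher by unadjusted p, Rara, Ppara, Nr1i2 and Nr2c2, against 8.58% of all genes, and 1 was lower, Nr1h4, against 6.11%. Both het libraries lay above both WT libraries for 9 of 28 members and below for 8, where 24.3% and 23.7% of all genes did so. The median absolute log2 fold change was 0.28 over the members and 0.19 over all genes in TG, and 0.16 and 0.15 in het. The median log2 fold change of the members was 0.04 in TG and -0.02 in het, with all genes at 0.00 in both.

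**Figure D2:**
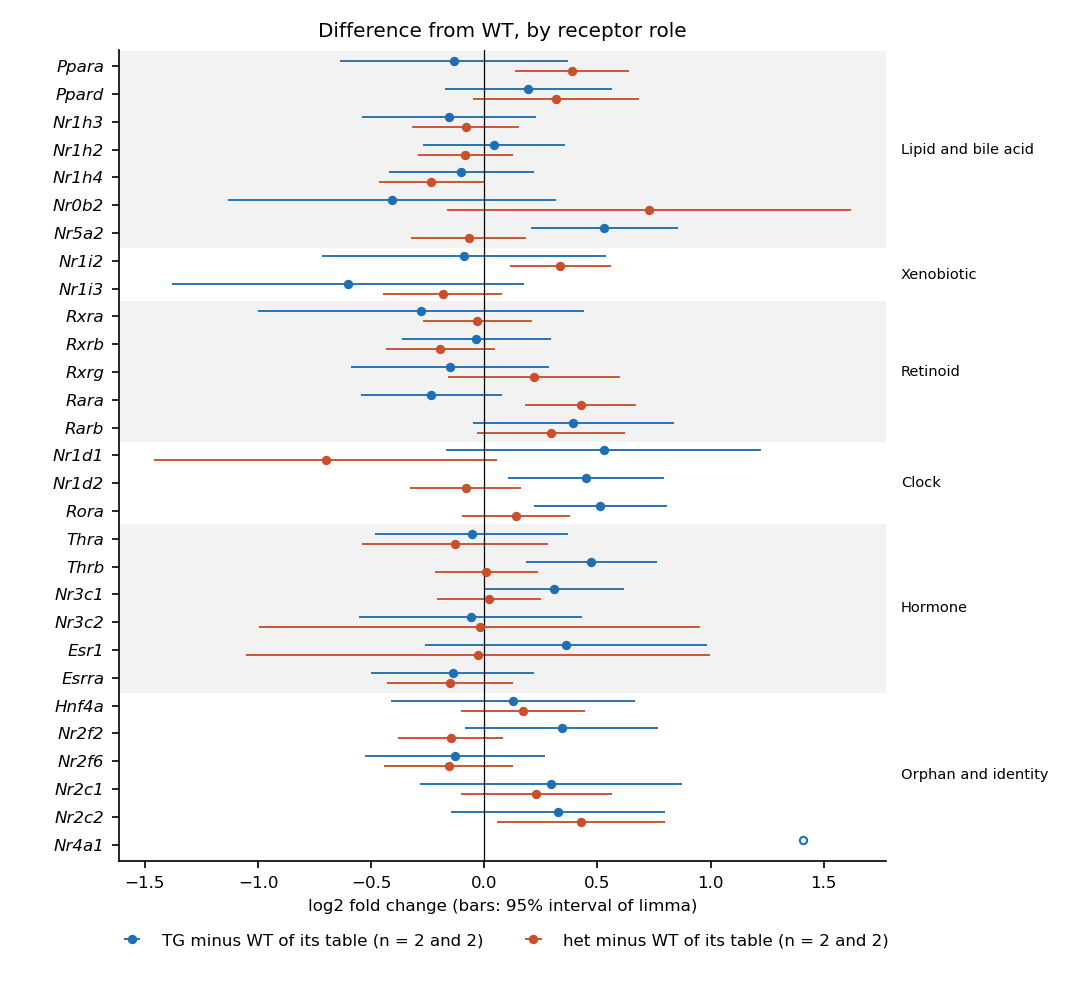
Log2 fold change of each receptor gene against the WT pair of its own table, for TG (blue) and het (orange), n = 2 libraries in each group, grouped by role. Points are limma estimates and bars their 95% intervals; Nr4a1 is drawn as an open point without its interval, which runs from -3.58 to 6.39. Rora, Nr5a2, Thrb and Nr1d2 lie to the right in TG, while Ppara, Rara, Nr1i2 and Nr2c2 do so in het.

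The nuclear receptor half-site AGGTCA, the 6 bases that most of these receptors recognise singly or in pairs, was looked for in the promoters of the receptor genes themselves. RefSeq windows on GRCm38.p6, 300 bases long and reaching from 250 bases before to 50 after a start site, were used for 27 members, 38 windows in all. On either strand, 7 of the 38 windows (18.4%) held AGGTCA, where 16.3% of 32851 windows of all genes did. These were windows of Nr1d2, Nr1h4, Nr5a2, Rara, Rxra, Rxrg and Thrb. The E-box CACGTG stood in 13.2% of member windows and in 7.15% of all windows. For the difference between the TG and het effects 6 of 28 members had an unadjusted limma p under 0.05 and were higher in TG relative to het, against 8.42% of all genes, and 2 were lower, against 8.28%. Of these, 4 had the half-site, Nr5a2, Thrb and Nr1d2 among the higher and Rara among the lower. Nr1d1, Nr2f2, Rora and Ppara did not have it, and of all members with windows 7 of 27 did. Whether the half-site goes with the effects was not tested. The windows of the 4 are shown here with AGGTCA in capitals, 5′ to 3′ on the strand of the gene. The motif begins at position -64 from the start site in Nr5a2 (chr1:136960399-136960698, minus strand), -184 in Thrb (chr14:17660710-17661009, plus strand), -77 in Nr1d2 (chr14:18239057-18239356, minus strand) and 34 in Rara (chr11:98964622-98964921, plus strand). In none of these windows did it overlap another motif searched. A match describes the letters of the window and shows no binding.
Nr5a2: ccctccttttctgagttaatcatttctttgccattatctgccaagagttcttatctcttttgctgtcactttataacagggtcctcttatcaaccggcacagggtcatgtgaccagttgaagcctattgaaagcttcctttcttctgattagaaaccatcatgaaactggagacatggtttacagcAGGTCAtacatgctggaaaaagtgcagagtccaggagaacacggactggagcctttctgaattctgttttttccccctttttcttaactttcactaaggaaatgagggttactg
Thrb: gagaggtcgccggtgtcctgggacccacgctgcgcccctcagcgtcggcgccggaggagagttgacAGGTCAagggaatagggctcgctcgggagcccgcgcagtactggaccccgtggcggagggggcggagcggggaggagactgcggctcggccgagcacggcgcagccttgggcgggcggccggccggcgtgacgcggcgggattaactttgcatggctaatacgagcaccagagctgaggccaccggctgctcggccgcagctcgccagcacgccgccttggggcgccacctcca
Nr1d2: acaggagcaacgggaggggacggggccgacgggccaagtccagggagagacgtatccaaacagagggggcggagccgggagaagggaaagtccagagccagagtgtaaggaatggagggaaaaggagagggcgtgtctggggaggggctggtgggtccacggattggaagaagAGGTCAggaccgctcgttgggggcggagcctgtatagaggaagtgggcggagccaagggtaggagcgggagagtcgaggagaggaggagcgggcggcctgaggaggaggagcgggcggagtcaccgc
Rara: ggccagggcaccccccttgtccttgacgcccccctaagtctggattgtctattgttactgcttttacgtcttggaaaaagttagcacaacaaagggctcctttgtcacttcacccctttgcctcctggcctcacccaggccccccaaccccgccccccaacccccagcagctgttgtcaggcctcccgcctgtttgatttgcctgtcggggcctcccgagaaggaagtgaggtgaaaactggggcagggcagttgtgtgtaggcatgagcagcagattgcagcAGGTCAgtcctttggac

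Among the receptors for fatty acids, Ppara lay above WT in het and overlapped WT in TG. Ppara (ENSMUSG00000022383, chr15:85734983-85802819, plus strand, GRCm38) encodes the fatty acid receptor that drives fat oxidation in hepatocytes. In het its values were 9216 and 9557 against 6963 and 7396 in WT. Both het libraries were higher than both WT libraries, with a log2 fold change of 0.39 (95% interval 0.14 to 0.64, SE 0.11, limma's adjusted p = 0.148). In TG its values were 18216 and 23336 against 23903 and 21430. There the first TG library lay below both WT libraries and the second between them, with a log2 fold change of -0.13 (95% interval -0.64 to 0.37, SE 0.20). The TG effect minus the het effect was -0.52 (SE 0.22, limma's adjusted p = 0.284). Ppard, a fatty acid receptor found in many tissues, had TG and het libraries above their WT pairs, by log2 fold changes of 0.19 and 0.32 (limma's adjusted p = 0.694 and 0.407).

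Listed targets of PPAR-alpha lay below WT in TG and above WT in het, with a wide gap between the TG libraries. Of 29 genes on the list 27 were measured in each table. In TG all 27 were below WT with a median log2 fold change of -0.64, where 0 passed limma's test and 5 had an unadjusted p under 0.05. TG library 1 had 0 of 27 targets above the WT mean (median -1.15 on the log2 scale), whereas TG library 2 had 14 of 27 (median 0.04). Vnn1, an ectoenzyme of pantetheine breakdown, shows the gap, with 193 in TG library 1 and 5558 in TG library 2, against 6365 and 6692 in WT. Among the genes of smallest p in TG were Acaa1a (log2 fold change -1.10) and Acaa1b (-1.12), enzymes of peroxisomal fatty acid oxidation, with limma's adjusted p of 0.534 or 0.535.

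In het 26 of the 27 targets were above WT, with a median log2 fold change of 0.43. By unadjusted p 13 were higher and 0 lower, against 8.58% and 6.11% of all genes. By limma's adjusted p 2 rose. These were Pex11a, which acts in peroxisome division, with 1400 and 1733 against 846 and 655 (log2 fold change 1.06, limma's adjusted p = 0.0371), and Vnn1, with 3112 and 3819 against 2182 and 1853 (0.78, limma's adjusted p = 0.0382). For both genes the het libraries lay above the WT libraries without overlap. Angptl4, an inhibitor of lipoprotein lipase, missed the threshold at 0.55 (limma's adjusted p = 0.0633). Het library 1 had 23 and het library 2 had 27 of the 27 targets above the WT mean. The call of Pex11a was lost without het replicate 1 and without het replicate 2 (limma's adjusted p up to 0.100), and that of Vnn1 whichever library was left out (up to 0.146).

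**Figure D3:**
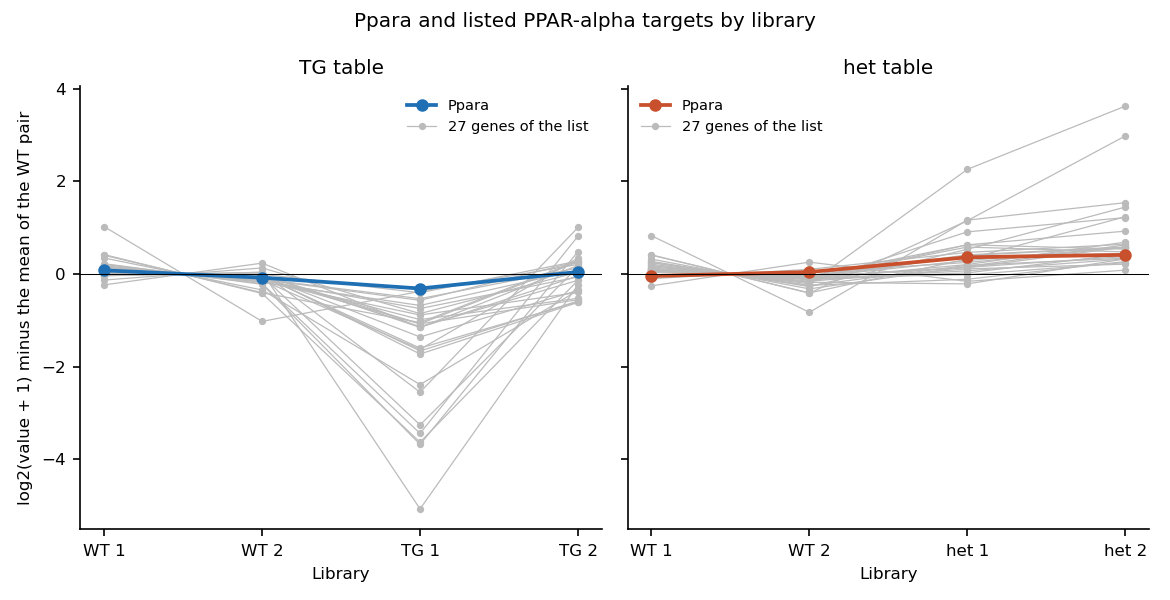
Ppara (thick line) and the 27 measured PPAR-alpha targets (grey) in each library, as log2(value + 1) minus the mean of the WT pair of the same table, with TG on the left and het on the right. Each line joins 1 gene across 4 libraries and the libraries of a group have no order; TG library 1 has 0 of 27 targets above the WT mean and TG library 2 has 14, while the het libraries have 23 and 27.

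The calls in het bear on every gene list below, so their limits are given here. Of the genes on the lists and marker sets, 20 were called in het by limma. Leaving out each of the 4 libraries in turn, 2 of the 20 kept the call each time, Pltp and Cyp2c37, and 7 kept it in none, where the remaining library of an arm is assumed to vary like the others. Without limma's trend and robust options 0 of all genes were called in het, as in a joint fit of all 8 libraries, while edgeR called 182 genes and DESeq2 289. In TG 0 genes were called by limma on any list, 0 by edgeR in the whole table and 188 by DESeq2.

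The oxysterol receptors were close to WT. Nr1h3 encodes LXR-alpha, the main oxysterol receptor of hepatocytes, and Nr1h2 encodes its relative LXR-beta. Their log2 fold changes were -0.16 and 0.04 in TG and both -0.08 in het, and of these 4 comparisons only Nr1h2 in het had libraries that did not overlap those of WT. Of the 17 LXR targets measured, 13 were above WT in het (median 0.29), 1 passed, and 8 were higher and 1 lower by unadjusted p. Pltp, the phospholipid transfer protein of plasma lipoproteins, rose in het with 1431 and 1115 against 360 and 308 (log2 fold change 1.92, SE 0.14, limma's adjusted p = 0.00203). Both het libraries lay more than 3-fold above either WT library. Abcg1, a sterol exporter, had 0.46 and Smpdl3a, a secreted phosphodiesterase, 0.29 (limma's adjusted p = 0.254 and 0.218). In TG 11 of the 17 were below WT (median -0.11), with 10 above the WT mean in library 1 (median 0.11) and 4 in library 2 (median -0.25). There 0 were called and 1 had an unadjusted p under 0.05, that of Abcg2, an efflux transporter, at -0.60 (limma's adjusted p = 0.436).

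The bile acid receptor gene Nr1h4 lay slightly below WT in both tables. It encodes FXR, which restrains bile acid synthesis partly through the repressor SHP, the product of Nr0b2. In het its values were 1922 and 1866 against 2104 and 2358, below in both libraries, with a log2 fold change of -0.23 (SE 0.10, limma's adjusted p = 0.332). In TG they were 5604 and 5829 against 5996 and 6268, again without overlap, with a log2 fold change of -0.10 (SE 0.13, adjusted p = 0.803 with limma).

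Nr0b2 spread widely. In het its values were 425 and 613 against 389 and 244, both above WT with a log2 fold change of 0.73 (95% interval -0.17 to 1.62, SE 0.32, limma's adjusted p = 0.415). In TG they were 1375 and 2383 against 2479 and 2322, so that library 1 was low and library 2 lay between the WT libraries (log2 fold change -0.41, SE 0.28, limma's adjusted p = 0.668). The difference of the effects was -1.13 (SE 0.48, limma's adjusted p = 0.305). Of the FXR and SHP targets, 10 of 15 were above WT in TG (median 0.28, 0 called and 0 with an unadjusted p under 0.05) and 4 of 14 in het (median -0.18, 1 called, 2 higher and 2 lower by unadjusted p). Nt5e, a 5'-nucleotidase of the cell surface, rose in het, with 703 and 825 against 503 and 483 (log2 fold change 0.63, limma's adjusted p = 0.0375), a call lost whichever library was left out (adjusted p up to 0.168). Sdc1, a heparan sulphate proteoglycan, had 0.45 and Cyp7b1, the oxysterol 7-alpha-hydroxylase, -0.42 there (both with limma's adjusted p = 0.110). In TG the smallest p were those of Slc10a1, the bile acid importer (0.43), Fgfr4, the receptor of intestinal FGF (0.32), and its co-receptor gene Klb (0.58), with limma's adjusted p from 0.560 to 0.598.

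Nr5a2 was above WT in TG and overlapped WT in het. It encodes LRH-1, which activates bile acid synthesis genes (ENSMUSG00000026398, chr1:136842571-136960448, minus strand). In TG its values were 2845 and 2486 against 1893 and 1790. Both TG libraries were above both WT libraries, with a log2 fold change of 0.53 (95% interval 0.21 to 0.85, SE 0.13, limma's adjusted p = 0.490). In het they were 562 and 520 against 614 and 523, which overlap, with a log2 fold change of -0.07 (SE 0.11). For this gene the TG effect minus the het effect was 0.60 (SE 0.17, limma's adjusted p = 0.170).

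Hnf4a, which maintains hepatocyte identity, overlapped WT in TG, with 23095 and 31245 against 23772 and 25478 (log2 fold change 0.13, SE 0.21). In het both libraries were above WT, with 8350 and 7733 against 7669 and 6643 (log2 fold change 0.17, SE 0.12, limma's adjusted p = 0.554). The targets listed for HNF4-alpha and LRH-1 were above WT for 18 of 24 in TG (median 0.17, 0 called, 4 higher by unadjusted p) and for 10 of 24 in het (median -0.07, 1 called, 2 higher and 4 lower by unadjusted p). F7, coagulation factor VII, fell in het, with 1508 and 1523 against 2368 and 2324 (log2 fold change -0.63, SE 0.09, limma's adjusted p = 0.0214). Without WT_het replicate 1, het replicate 1 or het replicate 2 that call was lost (adjusted p up to 0.120). Serpina1a, an alpha-1-antitrypsin gene of a family of near-identical copies, had -0.53 and Apoc3, an apolipoprotein, -0.42 (limma's adjusted p = 0.103 and 0.158). In TG Apoa1, an apolipoprotein of HDL, had 1.49 (SE 0.24, limma's adjusted p = 0.296), ahead of F7 (0.38) and the lipoprotein receptor gene Scarb1 (0.49).

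Both xenobiotic receptor genes had a wide gap between the TG libraries. Nr1i2 encodes PXR, the sensor of drugs and bile acids (ENSMUSG00000022809, chr16:38248323-38294824, minus strand). In het its values were 2365 and 2363 against 1957 and 1791, both above WT, with a log2 fold change of 0.34 (95% interval 0.11 to 0.56, SE 0.10, limma's adjusted p = 0.159). In TG they were 3955 and 6279 against 4998 and 5617, with library 1 below both WT libraries and library 2 above both (log2 fold change -0.09, SE 0.25). Nr1i3 encodes CAR, which induces cytochromes of drug clearance. In TG its values were 6131 and 11090 against 12904 and 12133. Both were lower than WT, library 1 by far the more, with a log2 fold change of -0.60 (95% interval -1.38 to 0.18, SE 0.30, limma's adjusted p = 0.598). In het they were 2701 and 3222 against 3284 and 3419, both below WT (log2 fold change -0.18, SE 0.12). Without TG replicate 2 the TG effect minus the het effect was -0.85 for Nr1i3 and -0.76 for Nr1i2, against -0.42 for each with all libraries. Without TG replicate 1 it was 0.0098 for Nr1i3 and -0.0911 for Nr1i2. Exons of Nr1i3 share 3304 bases with Tomm40l on the opposite strand, so reads of that gene may be among those counted.

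Targets of PXR and CAR went both ways. In het 12 of 25 were above WT (median -0.07), 0 rose and 3 fell, and by unadjusted p 3 were higher and 8 lower. Cyp2c37, a cytochrome of drug and fatty acid oxidation, fell with 5055 and 6322 against 14698 and 12529 (log2 fold change -1.26, SE 0.14, limma's adjusted p = 0.00777). Cyp2c50, its relative, fell with 5615 and 6346 against 9916 and 11868 (-0.86, limma's adjusted p = 0.0247), and the members of this family share much sequence, so reads may be split between them. Slco1a4, an importer of bile acids and drugs, fell with 1028 and 1094 against 1558 and 1574 (-0.56, limma's adjusted p = 0.0313). The call of Cyp2c50 was lost without WT_het replicate 2, het replicate 1 or het replicate 2, and that of Slco1a4 whichever library was left out (adjusted p up to 0.128 and 0.178). In TG 10 of 26 were above WT (median -0.15) and 0 were called, with 2 higher and 4 lower by unadjusted p, and the medians of the libraries were -0.30 in TG library 1 and 0.04 in TG library 2. Gsta1 and Gsta2, glutathione transferases that are also close copies, had the smallest p there, with 41.9 and 36.1 against 334 and 224 and with 338 and 217 against 1333 and 1190 (log2 fold changes -2.78 and -2.21, limma's adjusted p = 0.133 and 0.135). Slco1a4 had 0.77 in TG (adjusted p = 0.382), and its TG effect exceeded its het effect by 1.34 (limma's adjusted p = 0.0253), a call lost without WT_TG replicate 1 or without any 1 of the 4 libraries of the het table (adjusted p up to 0.145).

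Of the retinoid receptors, Rara lay on opposite sides of WT in the tables. Rara encodes a receptor for retinoic acid that works as a dimer with RXR (ENSMUSG00000037992, chr11:98927818-98974942, plus strand). In het its values were 430 and 395 against 312 and 300. Both het libraries were higher, with a log2 fold change of 0.43 (95% interval 0.18 to 0.67, SE 0.11, limma's adjusted p = 0.111). In TG they were 719 and 773 against 854 and 901, both lower, with a log2 fold change of -0.23 (95% interval -0.55 to 0.08, SE 0.12, limma's adjusted p = 0.602). The TG effect minus the het effect was -0.66 (SE 0.15, 95% interval -1.0 to -0.32), with limma's adjusted p = 0.112. This was the smallest p of the members for that difference. Libraries on opposite sides of their WT pairs, without overlap in either table, were found for 3 of 28 members, Rara, Nr1d1 and Nr2f2, and for 15.1% of all genes in both tables.

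Rarb, which is itself induced by retinoic acid, had libraries above WT in both tables, with 557 and 452 against 410 and 356 in TG and 161 and 173 against 139 and 132 in het. Its log2 fold changes were 0.39 and 0.29 (limma's adjusted p = 0.572 and 0.386), and 2020 bases of its exons overlap Top2b and Gm48162 on the opposite strand. Rxra, the shared partner of most of these receptors, had 14482 and 24526 in TG against 22066 and 23687, so library 1 was low and library 2 just above WT. In het Rxra varied little, with 6496 and 6416 against 6663 and 6525 (log2 fold change -0.03, 95% interval -0.27 to 0.21). Rxrb and Rxrg had log2 fold changes from -0.20 to 0.22, and among these only Rxrb in het did not overlap WT.

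Of the retinoic acid receptor targets 10 of 15 were measured in TG and 9 in het, with 0 called in TG and 1 lower by unadjusted p, and with 2 higher and 3 lower by that p in het. There Tgm2, transglutaminase 2, rose with 2982 and 3154 against 1971 and 1996 (log2 fold change 0.63, limma's adjusted p = 0.0249). Cyp26a1, which degrades retinoic acid, fell with 402 and 291 against 618 and 651 (-0.89, limma's adjusted p = 0.0442). The call of Tgm2 was lost whichever library was left out (adjusted p up to 0.123), and that of Cyp26a1 without WT_het replicate 1, WT_het replicate 2 or het replicate 2 (up to 0.166). Rarres1 had 0.52 in het (adjusted p = 0.162 with limma). In TG Cyp26b1, another retinoic acid hydroxylase, had 291 and 324 against 514 and 617 (log2 fold change -0.87, limma's adjusted p = 0.382), with Tgm2 at -0.36. Aldh1a1, an enzyme that makes retinoic acid, had 22622 and 42624 in TG against 77095 and 78805 (log2 fold change -1.33, limma's adjusted p = 0.496), and its relative Aldh1a7 had -0.90.

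The clock receptors were all above WT in TG. Rora activates and the REV-ERB genes Nr1d1 and Nr1d2 repress a common set of promoters in the daily clock. Rora (ENSMUSG00000032238, chr9:68653786-69388246, plus strand) had 3933 and 3750 in TG against 2653 and 2730. Both TG libraries were above both WT libraries, with a log2 fold change of 0.51 (95% interval 0.22 to 0.81, SE 0.12, limma's adjusted p = 0.454). In het Rora had 910 and 943 against 908 and 779, a log2 fold change of 0.14 (SE 0.10). Nr1d2 (ENSMUSG00000021775, chr14:18204054-18239127, minus strand) had 8108 and 7485 in TG against 5486 and 5926, again without overlap, with a log2 fold change of 0.45 (SE 0.14, limma's adjusted p = 0.526). In het it had 1847 and 1564 against 1796 and 1804, on both sides of WT (log2 fold change -0.08, SE 0.11).

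Nr1d1 (ENSMUSG00000020889, chr11:98767932-98775333, minus strand) was above WT in TG and below WT in het, with WT pairs that were themselves far apart. In TG its values were 4507 and 3556 against 3529 and 2187, a log2 fold change of 0.53 (95% interval -0.17 to 1.22, SE 0.27, limma's adjusted p = 0.601). The lower TG library stood only just above the higher WT library. In het they were 814 and 725 against 1608 and 972, both below WT, with a log2 fold change of -0.70 (95% interval -1.46 to 0.06, SE 0.27, limma's adjusted p = 0.367). Without WT_het replicate 2, the lower WT library, it was -1.06, and without WT_het replicate 1, the higher one, it was -0.34. The TG effect minus the het effect was 1.23 (SE 0.43, limma's adjusted p = 0.243), against 0.53 for Nr1d2 (SE 0.17, adjusted p = 0.196) and 0.37 for Rora (SE 0.15, adjusted p = 0.270). The exons of Nr1d1 share 263 bases with those of Thra on the opposite strand. The sources used here do not give the hour at which livers were taken, and its part in these values was not tested.

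Targets and partners of these receptors gave 0 calls in either table, with 14 of 21 above WT in TG (median 0.12) and 9 of 21 in het (median -0.03). By unadjusted limma p 3 were higher and 1 lower in TG, and 5 higher and 6 lower in het. Avpr1a, a vasopressin receptor of hepatocytes, had 951 and 775 in TG against 206 and 213 (log2 fold change 2.03, SE 0.16, limma's adjusted p = 0.102). Its TG effect exceeded its het effect by 3.82 (limma's adjusted p = 0.0394), a call lost without WT_TG replicate 1, WT_TG replicate 2, TG replicate 1, WT_het replicate 1 or WT_het replicate 2 (adjusted p up to 0.180). Cyp4v3, a fatty acid hydroxylase, had -0.68 and Per3, a clock repressor, 0.65 in TG (limma's adjusted p = 0.534 and 0.541). In het the output factor gene Dbp had 1629 and 1350 against 2215 and 2028 (-0.51, limma's adjusted p = 0.0827), and Insig2, a brake on sterol synthesis, had 1.16 (adjusted p = 0.132).

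Of the hormone receptors Thrb was above WT in TG. Thrb encodes the main thyroid hormone receptor of liver (ENSMUSG00000021779, chr14:17660261-18038090, plus strand). Its values were 2361 and 2209 in TG against 1629 and 1663. Both TG libraries were above WT, with a log2 fold change of 0.47 (95% interval 0.18 to 0.76, SE 0.11, limma's adjusted p = 0.491). In het they were 571 and 525 against 527 and 561, which overlap, with a log2 fold change of 0.01 (95% interval -0.22 to 0.24, SE 0.10). The TG effect minus the het effect was 0.46 (SE 0.14, limma's adjusted p = 0.182). Thra, the other thyroid hormone receptor gene, was at -0.06 in TG and at -0.13 in het on that scale.

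Of the thyroid hormone targets 8 of 14 were above WT in TG (median 0.17, 0 called, 1 higher by unadjusted p) and 10 of 13 in het (median 0.33), where 1 fell and 6 were higher and 1 lower by unadjusted p. Slc16a10, a carrier of aromatic amino acids and thyroid hormone, fell in het with 1232 and 1325 against 2279 and 2164 (log2 fold change -0.80, SE 0.10, limma's adjusted p = 0.00960). That call was lost without het replicate 1 (adjusted p = 0.0732). G6pc, glucose-6-phosphatase, had 0.87 in het (limma's adjusted p = 0.186). In TG Serpina7, a plasma carrier of thyroid hormone, had 848 and 786 against 377 and 365 (log2 fold change 1.14, SE 0.13, limma's adjusted p = 0.142). The TG libraries did not overlap the WT libraries, yet the gene missed the threshold.

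Nr3c1, the glucocorticoid receptor gene, was above WT in both TG libraries, with 5811 and 5838 against 4628 and 4777 (log2 fold change 0.31, SE 0.12, limma's adjusted p = 0.545). In het it had 1524 and 1341 against 1388 and 1427 (log2 fold change 0.02, SE 0.10). Its targets split by library in TG, with 5 of 22 above the WT mean in library 1 (median -0.49) and 19 of 22 in library 2 (median 0.56). In the test 0 of 22 were called in TG and 0 of 22 in het, where 19 were above WT with a median of 0.52, and by unadjusted p 3 were higher in TG and 8 in het. Dusp1, a phosphatase, had 0.96 and Pck1, the gluconeogenic carboxykinase, 0.98 in het (limma's adjusted p = 0.0813 and 0.106). Lpin1 (1.01), Tat (0.56) and Per1 (0.67) had the smallest p in TG (limma's adjusted p = 0.541 or 0.542).

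Nr3c2, the mineralocorticoid receptor gene, was low and uneven in the het table, with 71.5 and 57.5 against 42.9 and 98.4 in WT. Esr1, an oestrogen receptor gene, differed between libraries of the same group more than between groups, with 745 and 1169 in het against 775 and 1168 in WT. In TG it had 2950 and 4726 against 2788 and 3034. Esrra encodes ERR-alpha, an orphan receptor of mitochondrial genes, with fold changes of -0.14 (TG) and -0.15 (het) on the log2 scale. Of its targets 3 of 20 were above WT in TG (median -0.12) and 13 of 19 in het (median 0.04), with 0 called in either and 1 and 2 higher by unadjusted p. In het Pdk4, a brake on glucose oxidation, had 374 and 965 against 89.7 and 66.6 (log2 fold change 2.94, SE 0.59, limma's adjusted p = 0.217), a wide gap between het libraries. Nrf1 had -0.38 there, and in TG Gabpa (0.35) and Cox5b (-0.35) were among the genes of smallest p.

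Among the orphan receptors Nr2f2 lay on opposite sides of WT. Nr2f2 encodes COUP-TFII, known from venous endothelium and mesenchymal cells as well as hepatocytes (ENSMUSG00000030551, chr7:70351944-70366735, minus strand). Its values were 1434 and 1473 in TG against 994 and 1323, both higher (log2 fold change 0.34, SE 0.17, limma's adjusted p = 0.593). In het they were 351 and 359 against 389 and 398, both lower (log2 fold change -0.15, SE 0.10, limma's adjusted p = 0.544). The TG effect minus the het effect was 0.49 (SE 0.19, 95% interval 0.04 to 0.94, limma's adjusted p = 0.267).

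Nr2c2 encodes TR4 and was above WT in both tables, with 127 and 137 against 102 and 93.3 in het (log2 fold change 0.43, SE 0.16, limma's adjusted p = 0.282). In TG it had 526 and 471 against 455 and 347 (log2 fold change 0.33, SE 0.19, limma's adjusted p = 0.623). Of its exon bases 4657 overlap genes of the opposite strand, Mrps25 and Gm44249. Nr2c1, the gene of the related TR2, overlapped WT in both tables, with changes of 0.29 (TG) and 0.23 (het) on the log2 scale. Nr2f6, another COUP family gene, overlapped as well, at -0.13 and -0.16.

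Markers of cell types were compared with WT in each table. Those of hepatocytes were above WT for 7 of 9 in TG (median log2 fold change 0.20) and for 3 of 9 in het (median -0.13). Limma called 0 of them in either table. Markers of other cell types differed between the groups too. Their values stand beside those of Nr2f2, Rarb and Nr1h3, which such cells also express. In TG 0 of 16 endothelial markers were above WT (median log2 fold change -0.26), against 16 of 16 in het (median 0.33). The summed endothelial level ran from 20461 to 20850 in TG against 24985 to 25087 in WT, and from 7421 to 7540 in het against 6091 to 6435. For Kupffer cell markers 1 of 15 was above WT in TG (median -0.33) and 13 of 15 in het (median 0.27), with 0 called by limma. Their sum stood at 24638 in TG library 1 and 32441 in TG library 2, against 39017 and 36748 in WT. Stellate cell markers were split, 8 of 16 above in TG and 6 of 15 in het. In TG library 1 13 of the 16 were above the WT mean (median 0.20) and in TG library 2 6 (median -0.24). Also split were cholangiocyte markers, with 4 of 8 in TG and 2 of 3 in het. Of lymphocyte and neutrophil markers 3 of 13 were above WT in TG and 2 of 6 in het, and the TG libraries had 7 and 0 of 13 above the WT mean. Mesothelial markers were above WT for 5 of 7 in TG, with 1 of 7 above the WT mean in library 1 and 5 of 7 in library 2. In het 4 of 7 were listed and all 4 were below WT (median -2.08). There Upk3b, Slpi and Gpm6a fell (log2 fold changes -2.24, -2.21 and -1.96, limma's adjusted p = 0.00891, 0.0394 and 0.0442). Their het means were 15.4, 17.1 and 9.49, against 76.4, 79.1 and 40.2 in WT. These het means lay under 17.8, the lowest mean listed in the het table. The 3 genes were thus listed only through WT, so their place below WT was partly set in advance. The endothelial genes Lyve1 and Gpr182 rose in het (0.92 and 0.67, limma's adjusted p = 0.0403 and 0.0442). By DESeq2 the adjusted p was 0.0123 for Lyve1 and 0.0547 for Gpr182. With 1 library left out, the log2 fold change ran from 0.70 to 1.14 for Lyve1 and from 0.56 to 0.77 for Gpr182. The limits given above for calls in het hold for these genes and for the mesothelial ones. No listed marker was at 0 in any library, but genes under a lowest mean were not listed. In whole liver fewer cells of a type and less RNA per cell cannot be told apart, and the part of these cells in the receptor values was not tested.

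The TG libraries were further from each other than the WT libraries of their table over all genes, and for several receptors as well. Past 1.5-fold between the libraries of a group stood 6 of 29 members in TG, Nr4a1, Nr1i3, Nr0b2, Rxra, Nr1i2 and Esr1, against 17.7% of all genes. In its WT pair 1 did, Nr1d1, against 12.2% of all genes. In the table of het, WT had 4 of 28, Esr1, Nr0b2, Nr1d1 and Nr3c2, and het had 1, Esr1, against 6.57% and 6.07% of all genes. For all 6 in TG the value was lower in TG library 1, a side that was not counted over all genes. The median absolute log2 difference between the TG libraries was 0.21 over the members and 0.22 over all genes, and between their WT libraries 0.10 and 0.18.

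**Figure D4:**
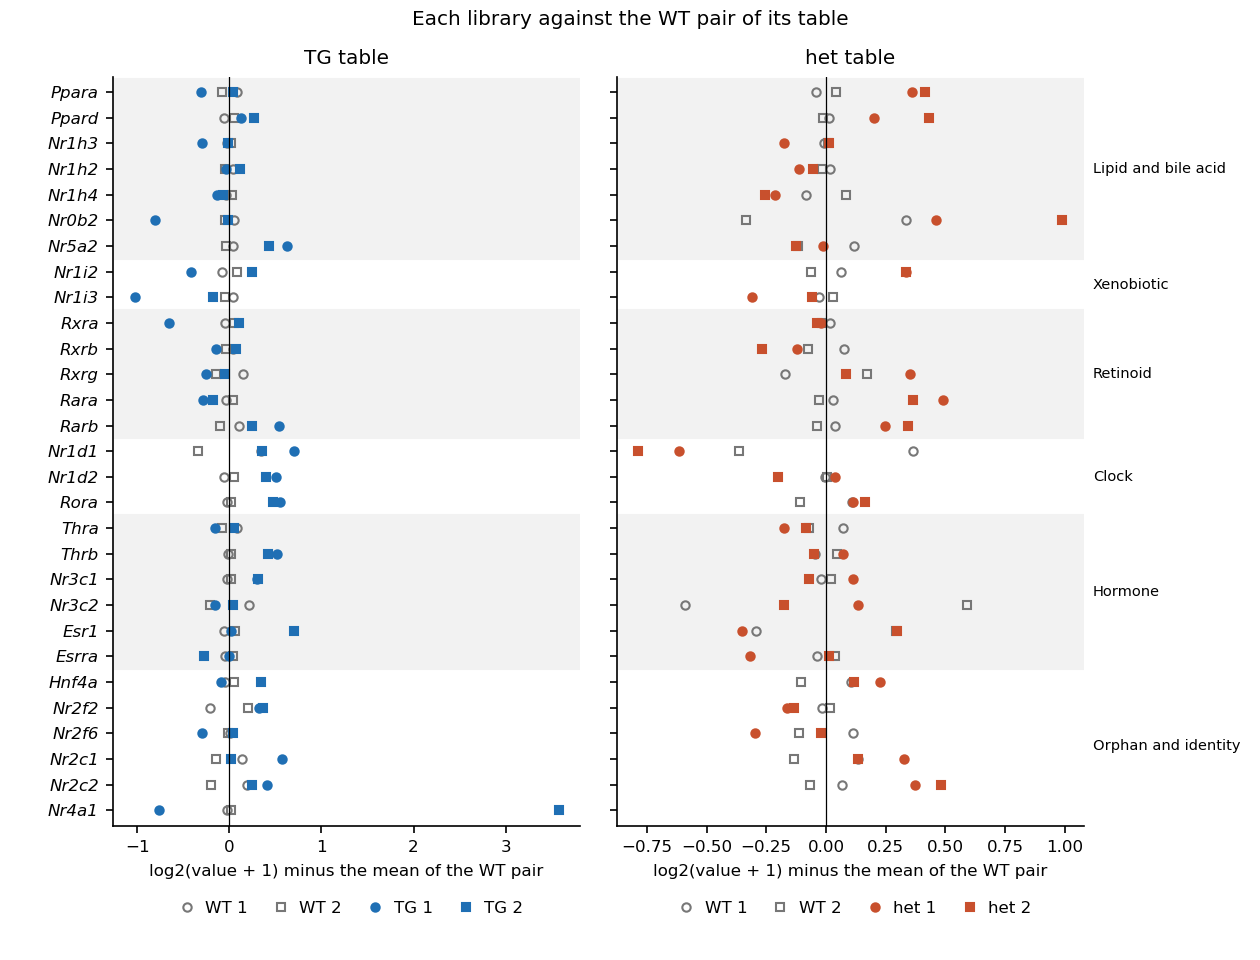
Each library's log2(value + 1) minus the mean of the WT pair of its table, with WT libraries as open grey symbols and mutant libraries as filled symbols, TG on the left and het on the right (n = 2 per group; the axes differ in range). In TG, library 1 (circles) lies far left of library 2 (squares) for Nr1i3, Nr0b2, Rxra and Nr4a1, and both lie to the right for Rora, Nr5a2, Thrb and Nr1d2.

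Nr4a1 showed the widest gap. It encodes NUR77, an orphan receptor whose gene is switched on within minutes by many stimuli, as an immediate early gene (ENSMUSG00000023034, chr15:101254269-101274795, plus strand). In TG its values were 56.5 in library 1 and 1162 in library 2, against 95 and 98 in WT. Library 1 was thus below and library 2 far above both WT libraries, and the log2 fold change of 1.41 had an SE of 1.67 (limma's adjusted p = 0.803). Without TG replicate 1 it was 3.58, and without TG replicate 2 it was -0.76.

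Other immediate early genes were also mostly higher in TG library 2 than in TG library 1. Of 24 measured, 18 were above the WT mean in TG library 2 (median 1.01 on the log2 scale) and 6 in TG library 1 (median -0.32), and 0 were called in TG by limma, 1 having an unadjusted p under 0.05. Fos stood at 58.5 and 2724 in the TG libraries against 191 and 154 in WT, and Egr1 at 287 and 16509 against 2364 and 2590. Both encode transcription factors of the first response to a stimulus. By smallest p the list led with Klf6 (log2 fold change 0.58), Klf2 (-0.39) and Dusp2 (-0.54) in TG (limma's adjusted p from 0.518 to 0.682). In het, where Nr4a1 was not analysed here, 4 of 18 were higher and 1 lower by unadjusted p. There Btg2, an antiproliferative factor, rose with 299 and 245 against 118 and 100 (1.31, limma's adjusted p = 0.0101), and Jun, a subunit of AP-1, with 230 and 187 against 75.1 and 107 (1.21, limma's adjusted p = 0.0371). The call of Btg2 was lost without het replicate 1, and that of Jun without WT_het replicate 1, het replicate 1 or het replicate 2 (adjusted p up to 0.0732 and 0.187).

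The promoter of Nr4a1 is shown because cyclic AMP response elements are known to drive this gene. Its RefSeq window (chr15:101266596-101266895, plus strand) held the half-site TGACG 4 times, each on the minus strand, so that the printed strand reads CGTCA, in capitals. The matches begin at positions -233, -213, -69 and -40 from the start site and overlap no other motif searched. At least 1 TGACG on either strand stood in 26.3% of member windows and in 20.8% of all windows.
Nr4a1: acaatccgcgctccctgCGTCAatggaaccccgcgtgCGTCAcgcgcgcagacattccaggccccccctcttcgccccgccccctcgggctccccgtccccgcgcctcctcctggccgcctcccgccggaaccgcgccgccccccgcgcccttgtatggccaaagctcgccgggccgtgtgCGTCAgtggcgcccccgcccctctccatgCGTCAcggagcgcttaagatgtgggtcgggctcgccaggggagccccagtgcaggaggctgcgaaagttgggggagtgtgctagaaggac

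**Figure D5:**
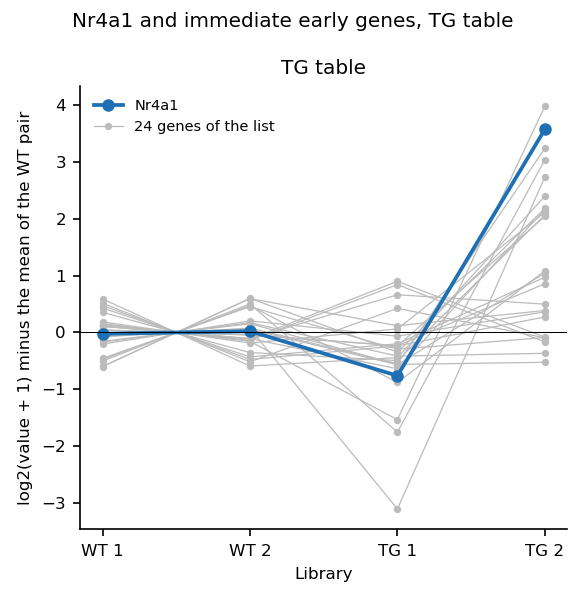
Nr4a1 (thick line) and 24 immediate early genes (grey) in the 4 libraries of the TG table, as log2(value + 1) minus the mean of the WT pair. Each line joins 1 gene and libraries of a group have no order; Nr4a1 is at 56.5 normalised reads in TG library 1 and at 1162 in TG library 2.

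Transcripts of the proteins that receptors work with were also measured. Of 30 coregulator genes 21 were above WT in TG (median 0.13, 0 called), with 9 higher and 1 lower by unadjusted p. The higher ones were led by Ppargc1a, the coactivator PGC-1-alpha, with 905 and 947 against 525 and 529 (log2 fold change 0.81, SE 0.12, limma's adjusted p = 0.267), Sirt1 (0.45) and Ncoa2 (0.37). In het 21 of 30 were also above WT (median 0.04) and 2 rose, with 3 higher and 1 lower by unadjusted p. Smarca4, the motor of the BAF remodelling complex, had 1564 and 1347 against 837 and 977 (log2 fold change 0.68, limma's adjusted p = 0.0371). Tbl1xr1, a subunit of the NCoR corepressor complex, had 885 and 865 against 640 and 616 (0.48, limma's adjusted p = 0.0463). The call of Smarca4 was lost without WT_het replicate 1, het replicate 1 or het replicate 2, and that of Tbl1xr1 whichever library was left out (adjusted p up to 0.183 and 0.229). Pprc1, a coactivator related to PGC-1-alpha, had -0.40 in het (adjusted p = 0.270).

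Of 29 genes of ligand supply and clearance 26 were measured in TG and 25 in het, with 12 above WT in each (medians -0.05). The 2 that passed in het, Slc16a10 and Cyp26a1, are given above, and 0 passed in TG. By unadjusted p 3 were lower in TG, and 4 higher and 5 lower in het. Of 19 other nuclear receptors 10 were measured in TG and 6 in het, and 0 were called, with 1 lower in TG and 1 higher in het by unadjusted p. Among them Pparg, the receptor of fat storage, had 427 and 371 in TG against 840 and 941, and 481 and 270 in het against 147 and 187 (log2 fold changes -1.16 and 1.12, limma's adjusted p = 0.182 and 0.244). Its groups did not overlap in either table. Hnf4g, a relative of Hnf4a, had 32.2 and 16.0 in TG against 5.0 and 16.2 in WT, which overlap. Its log2 fold change was 1.23 (SE 0.70, limma's adjusted p = 0.621). The WT mean of 10.6 lay under 11.2, the lowest mean listed in the TG table, so this gene was listed only through TG. Nr6a1 had a log2 fold change of -0.19 in het.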

How the data were processed

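Total liver RNA was extracted with TRIzol and made into libraries with a TruSeq kit, per the labels' protocols. Subread 1.5.2, featureCounts and DESeq2, with mm10/GRCm38 as the build, are named in the submitters' processing notes, with no roles. The use of strand in counting is not stated there. Each deposited signal value was the read count of a gene that the authors had scaled by 1 factor per library. From the values, 100% of entries in every library were whole multiples of 1 read within 0.001 read, which gave back the reads. The tables list genes from a mean of 11.2 (TG) or 17.8 (het) normalised reads upward.

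Groups followed the labels, 2 libraries each. Values were taken to log2(value + 1), a scale that understates the change of low genes, and tested with limma 3.58.1 under R 4.3.3, using lmFit and then eBayes with its trend and robust options, over all genes of a table, at a Benjamini-Hochberg adjusted p under 0.05. The difference of the effects, (TG - WT) - (het - WT), was fitted on the 11754 genes of both tables and 8 libraries. The fit was tested on simulated data. Alternatives were edgeR 4.0.16 and DESeq2 1.42.0 on the recovered reads, TMM scaling, library sizes without the 20 most abundant genes, a mean of at least 50, pseudocounts of 0.5 and 5, no trend or robust option, all 8 libraries in 1 fit, a block for the replicate number, and each library left out in turn.

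The members, the 14 gene lists and the 7 marker lists were chosen with earlier results of these data known. All libraries' values are given for members with an unadjusted p under 0.05 in any comparison or with libraries that did not overlap and an absolute log2 fold change of at least 0.5. Each list is given by its counts, its called genes and its genes of smallest p. Some genes that this rule selects are left out by name. Genes chosen after their values were seen were Vnn1 in TG, Fos and Egr1, and members given with library values outside that rule. Gene positions are from GENCODE on GRCm38 by symbol, and promoter windows from RefSeq on GRCm38.p6, matched by symbol. Member windows on chromosome 18, where Nr3c1 lies, were left out, while the windows of all genes kept that chromosome. This gave windows for 27 of 29 members.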

Additional observations from a re-analysis of the deposited data

Results flagged for a closer look

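The TG and het effects, each against its own WT pair, differed by limma's test of the difference for 5 genes of the lists. On the log2 scale the TG effect minus the het effect was 3.82 for Avpr1a, 1.34 for Slco1a4 and 1.01 for F7, which were higher in TG relative to het. It was -1.0 for Flt4 and -1.07 for Gpr182, both endothelial markers. Limma's adjusted p was 0.0253 for Slco1a4, 0.0338 for F7 and for Flt4, 0.0394 for Avpr1a and 0.0457 for Gpr182. None of the 5 kept the call in each of the 8 fits that left out 1 library.

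For 3 of the 28 receptor genes in both tables, both libraries of TG lay on one side of their WT pair and both libraries of het on the other side of theirs. Of all 11754 genes in both 15.1% did the same, a larger share than of the receptor genes. The difference of the effects was 1.23 for Nr1d1, 0.49 for Nr2f2 and -0.66 for Rara, and limma's test of the difference did not pass the adjusted threshold for any of them (adjusted p = 0.243, 0.267 and 0.112).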

How the results depend on the processing

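The count of receptor genes called by limma was 0 in TG, in het and for the difference under the other tools, scalings, pseudocounts, filters and fits, and it moved only when a library was left out. Such fits leave 1 library in an arm, so only the effect sizes of the members that moved are given. In TG Nr4a1 was at 3.58 without TG replicate 1. In het Nr1d1 was at -1.06 without WT_het replicate 2, against -0.34 without WT_het replicate 1. The difference of the effects without TG replicate 2 was -0.85 for Nr1i3 and -0.76 for Nr1i2. With the replicate number as a block (replicate block) 0 members were called in each comparison. The log2 difference of library 1 minus library 2 was taken for each gene in WT and in the mutant. Across genes with a mean of at least 50, the WT and mutant differences correlated at 0.131 in the TG table (11971 genes). In the het table they correlated at -0.08 (10241 genes). The numbers were therefore not taken to pair the libraries.

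Of 598 log2 values under the alternatives, which cover 14 members, Nr4a1 in TG alone and, in each comparison, the 13 others with an unadjusted p under 0.05 or with libraries that did not overlap and a log2 fold change of at least 0.5 in size, 584 kept direction and side of the threshold, 4 passed it and 10 changed sign. With single libraries left out, the log2 fold change in TG ran from -0.422 to 0.245 for Nr1i2 and from -0.313 to 0.0441 for Ppara, each highest without TG replicate 1. That of Nr4a1 ran from -0.761 without TG replicate 2 to 3.58 without TG replicate 1. In het it ran from -0.203 to 0.0369 for Nr1d2 (highest without het replicate 2), from -0.184 to 0.0477 for Nr5a2 (highest without WT_het replicate 1) and from -0.051 to 0.0701 for Thrb (below 0 without WT_het replicate 1, at -0.0358, or het replicate 1). The difference ran from -0.845 to 0.0098 for Nr1i3 (highest without TG replicate 1) and from -0.297 to 0.0946 for Nr2c2 (highest without WT_TG replicate 1). With library sizes that leave out the 20 most abundant genes, Thrb in het was at -0.0077. The cause of these changes was not tested. Together with the called list genes 960 values were compared, the 598 of members among them. Of these 144 lost the call, all of them values of called list genes.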
